A study of Homo sapiens with 7 samples.

Results

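The regions described here are the widest H3K27ac peaks of T-47D cells, a human luminal breast cancer cell line that expresses the estrogen receptor. Chromatin immunoprecipitation and sequencing (ChIP-seq) was carried out for 6 histone marks with 1 library per mark, so there are no replicates, and the files hold 1 peak list per mark. All 6 libraries came from the same cell line with no treatment named, grown in DMEM with 10% fetal bovine serum to 70 to 80% confluence, so no condition was compared, and the series asks how histone modification relates to gene regulation in this line. Of 31453 H3K27ac peaks on chromosomes 1 to 22 and X, the 564 with an end minus start of more than 5000 bp were selected on that width as members (1.79%), and they were set against the 5953 peaks wider than 1 kb and up to 2 kb. Width chose the members, so widths and everything counted in the H3K27ac list are given as a description, while the other 5 lists (H3K4me2, H3K36me3, H3K9me3, H3K27me3 and H2A.Z) did not enter the choice. An input sample was listed and was not analysed here.

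As background, acetylation of lysine 27 on histone H3 marks promoters and enhancers that are in use, and nucleosomes carrying it can extend over many kilobases at genes that define a cell's identity or are strongly transcribed. H3K4me2 is laid down at promoters and enhancers alike. H3K36me3 follows elongating RNA polymerase over the bodies of transcribed genes, whereas H3K27me3 is the mark of Polycomb repression and cannot sit on the same histone tail as H3K27ac, since both modify the same lysine. H3K9me3 is known for heterochromatin and the histone variant H2A.Z for promoters and enhancers. In these files the list labelled H3K9me3 lay on 19.3% of all H3K27ac peaks and the list labelled H2A.Z on 0.0763%, which runs opposite to that background, so both are called by their labels throughout. Whether these 2 labels were exchanged could not be settled from the files, and what each value of these lists means depends on it. H3K27me3 lay on 0.0350% of all H3K27ac peaks.

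The files give a position and a width for each peak and no height, read count or total, so the depth is unknown, and signal that fell below the calling threshold cannot be seen. Intervals in brackets are 95% intervals that treat peaks as independent draws and cover counting error only. Coordinates are hg19 and 1-based, and regions carry no gene names because no hg19 annotation was used here. Copy number was not corrected for.

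The members had a median width of 6.53 kb, with quartiles of 5.63 and 8.37 kb, against a median of 1.39 kb in peaks of 1 to 2 kb. Most were near the threshold, with 373 of 5 to 7.5 kb, 111 of 7.5 to 10 kb and 80 over 10 kb, of which 11 exceeded 20 kb. They covered 4.21 Mb, which is 11.8% of the 35.8 Mb of H3K27ac sequence. The 3 members nearest above the threshold were at chr1:24739537-24744539 and chr8:68290124-68295126, both 5003 bp wide, and chr3:119863078-119868081, at 5004 bp. The 3 peaks nearest below it were at chr1:155051767-155056762 (4996 bp), chr6:125521870-125526864 (4995 bp) and chr19:14659994-14664986 (4993 bp). Those inside held 2, 2 and 0 H3K4me2 peaks and those outside held 0, 2 and 1.

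Some rows of the H3K27ac list overlap each other. Among the members 76 (13.5%) overlapped another H3K27ac row, against 127 (2.13%) of the peaks of 1 to 2 kb. In 19 cases both overlapping rows were members, which shared 72.9 to 98.4% of the shorter row (median 95.5%), and in all 19 the row that started later also ended later. The 564 rows therefore stand for 545 distinct regions. Counts below are of rows. Where values were also computed with overlapping rows merged, they are given if they differ beyond the interval.

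The widest member lay on chromosome 22 (29185842 to 29225458) and spanned 39.6 kb. It held 4 H3K4me2 peaks, the widest of 896 bp, which sat in 2 pairs towards its ends and left 22.7 kb without H3K4me2 between them, and 2 H3K36me3 peaks covered 15.9% of it. The next, on chromosome 4 (37451046 to 37485061), spanned 34.0 kb with 8 H3K4me2 peaks, the widest of 997 bp, and 4 H3K36me3 peaks. The member on chromosome 2 (11669584 to 11700094) spanned 30.5 kb, with 4 H3K4me2 and 3 H3K36me3 peaks over 9.16% and 8.18% of its length. That on chromosome 17 (56003722 to 56032225) spanned 28.5 kb and was the densest in H3K4me2 of the 4, with 8 peaks, the widest of 4857 bp, over 44.5% of its length. All 4 had further H3K4me2 peaks within 20 kb on both sides and no peak of the lists labelled H3K9me3 or H2A.Z or of H3K27me3 inside.

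The other members of over 20 kb lay on chromosome 6 (2 overlapping rows, 151964285 to 151992130 and 151963580 to 151990112) and at chr8:116657273-116683935, chr14:74057843-74083224, chr20:49338984-49362809, chr10:28569689-28593185 and chr21:41686499-41708501. Each held 3 to 5 H3K4me2 peaks. The remaining 9 of the 20 widest were 2 overlapping rows on chromosome 1 (154151855 to 154171384 and 154155908 to 154172905) and the rows at chr10:71078883-71096863, chr9:13060728-13078142, chr8:102510022-102527196, chr5:35297288-35314299, chr14:38052126-38069034, chr22:46433162-46449435 and chr11:72897840-72913919. The 20 widest were spread over 14 chromosomes. All 20 overlapped H3K4me2, 13 overlapped H3K36me3 and 4 overlapped the list labelled H3K9me3. H3K4me2 covered between 2.96% (chromosome 14, 38052126 to 38069034) and 59.4% (chromosome 22, 46433162 to 46449435) of each, with a median of 11.4%.

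Most members carried H3K4me2, yet it left most of their acetylated sequence uncovered. An H3K4me2 peak overlapped 499 of 564 members, 88.5% (85.6 to 90.9), against 66.3% (65.0 to 67.4) of peaks of 1 to 2 kb and 48.8% of all H3K27ac peaks. A wide region has more room to meet a peak of any list, so the same lists were also measured per length. H3K4me2 covered 24.3% of member sequence (22.5 to 26.1) against 38.0% of the sequence of peaks of 1 to 2 kb (37.1 to 38.9), a difference of -13.7 percentage points (-15.6 to -11.7). In a window of 1 kb around the midpoint, 46.5% of members and 62.5% of the narrower peaks met H3K4me2, a difference of -16.1 points (-20.3 to -11.8). For every list, this window takes in most of a peak of 1 to 2 kb but a small part of a member. The central windows therefore compare equal lengths but are not fully corrected for width. The share of peaks and the covered share of sequence thus ran in opposite directions, and both differences were larger than their counting error.

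The share of peaks on H3K4me2 climbed through all the width classes, while the covered share of sequence was highest in the middle ones. Up to 0.50 kb (the commonest width in the list), then to 1 kb, to 2 kb and to 5 kb, the share overlapping H3K4me2 was 30.0, 50.6, 66.3 and 77.4%, and within the members it was 86.6% at 5 to 7.5 kb, 88.3% at 7.5 to 10 kb and 97.5% over 10 kb. The covered share of sequence was 23.2% (22.5 to 23.9) up to 0.50 kb, 37.5% at 0.50 to 1 kb, 38.0% at 1 to 2 kb and 32.4% (31.5 to 33.3) at 2 to 5 kb. In the 3 member classes it was 24.9% (22.6 to 27.1), 25.9% and 21.9%, with overlapping intervals. The low covered share of the members was thus close to that of the narrowest peaks, and the class of 1 to 2 kb had the highest value of all the classes.

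**Figure D1:**
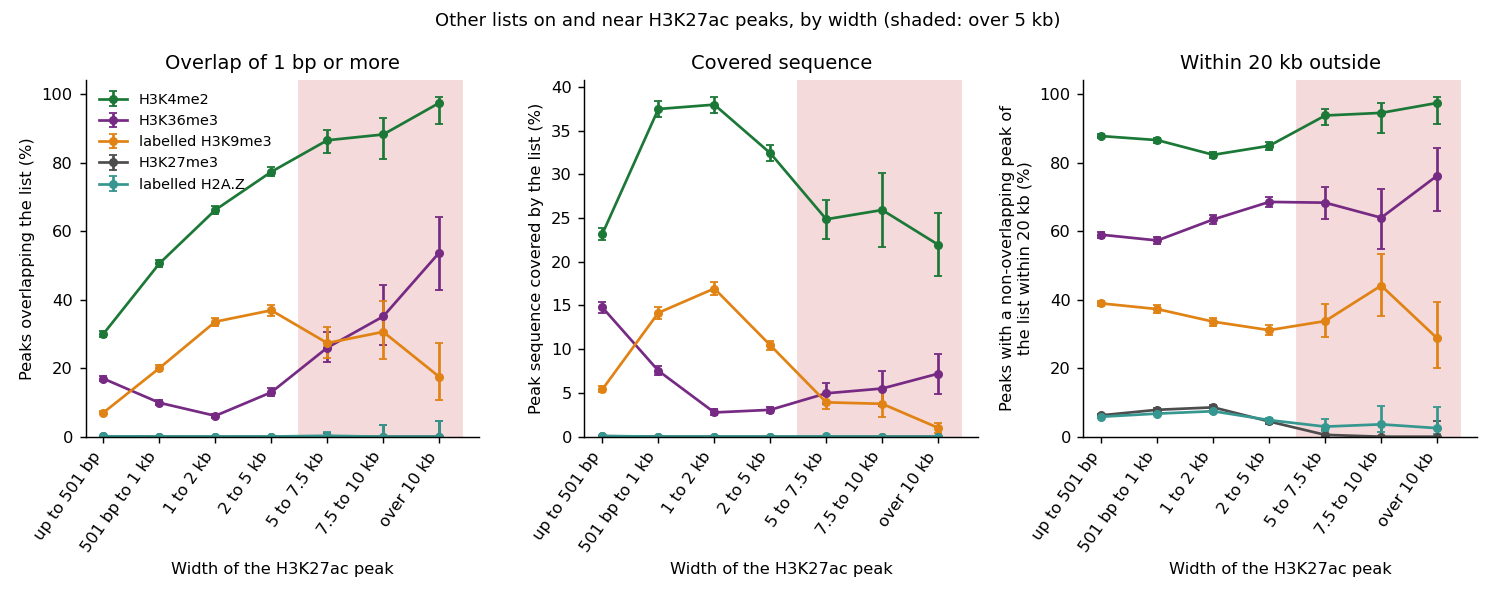
H3K27ac peaks in 7 width classes on the x axis, members shaded, against the percent of peaks overlapping each other list by at least 1 bp (left), the percent of peak sequence it covers (middle) and the percent with a non-overlapping peak of it within 20 kb (right); points are class values and bars 95% intervals. H3K4me2 overlap climbs to 97.5% over 10 kb while its covered share falls to 21.9%, and H3K36me3 overlap is lowest at 1 to 2 kb (6.10%) and highest over 10 kb (53.8%).

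Members held 1.76 ± 1.19 H3K4me2 peaks each (SD over 564 members, which are not replicates), from 0 to 8. No H3K4me2 peak lay in 65 members, 1 in 194, 2 in 172, 3 in 95, 4 in 29, 5 in 5, 6 in 1, 7 in 1 and 8 in 2. At least 2 lay in 305 members (54.1%), against 272 peaks of 1 to 2 kb (4.57%). Per kilobase, however, the members held 0.228 H3K4me2 peaks and the narrower class 0.498, a difference of -0.270 (-0.285 to -0.255). A peak that runs over an edge counts whole here, which raises the rate more in narrow regions. Width therefore partly sets this difference, and it is not a width-corrected measure. With an overlap of 50% of the shorter peak required, the difference was -0.195 (-0.210 to -0.180). The mean was 1.47 ± 0.90 in members of 5 to 7.5 kb, 1.81 ± 1.18 at 7.5 to 10 kb and 3.05 ± 1.48 over 10 kb. Besides the members on chromosomes 4 and 17 with 8 H3K4me2 peaks each, the third by number was that on chromosome 10 (71078883 to 71096863), with 7 over 33.1% of its 18.0 kb.

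H3K4me2 peaks are short beside the members by the choice of width, since every member is over 5 kb. Of 993 cases of an H3K4me2 peak in a member, 821 (82.7%) lay wholly inside it, against 26.7% in peaks of 1 to 2 kb. Width chose the classes and largely sets this share, since a wide region encloses a short peak more easily, so nothing is read from it. The median width of these H3K4me2 peaks was 719 bp in members and 896 bp in the narrower class, against 628 bp in the whole H3K4me2 list. Midpoints of neighbouring H3K4me2 peaks in 1 member lay a median of 2.54 kb apart, with quartiles of 1.81 and 3.60 kb (494 spacings). The longest stretch of a member without H3K4me2 had a median of 3.61 kb, or 50.5% of its width, and reached 5 kb in 170 members. A stretch of 5 kb cannot occur in peaks of 1 to 2 kb, so these lengths are a description. H3K4me2 covered more than 50% of 67 members (11.9%), against 35.1% of peaks of 1 to 2 kb.

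H3K4me2 peaks lay throughout the members, with the most midpoints, but not the most covered sequence, near the edges. Each side of a member, from edge to centre, was divided into 5 equal zones. Counted from the edge inward, 258, 180, 167, 186 and 202 H3K4me2 midpoints fell in them, where the midpoint is that of the part inside the member. The outermost zone thus held 26.0% of them, and it also takes in the inner ends of peaks that run over an edge. In covered sequence the outermost zone had 22.7% (20.6 to 24.9) and the innermost 26.8% (23.9 to 29.7), with overlapping intervals. Peaks of 1 to 2 kb had 34.2% in the outermost and 37.7% in the innermost zone, with the highest value, 40.1%, midway.

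**Figure D2:**
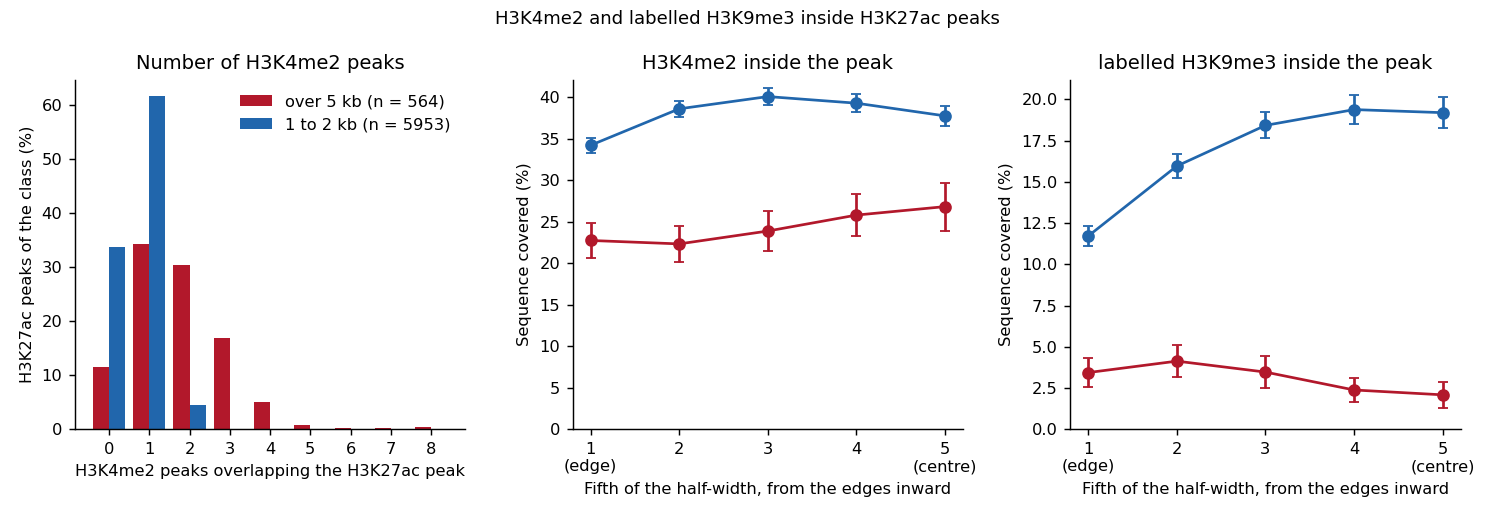
Left: percent of H3K27ac peaks (y axis) with 0 to 8 H3K4me2 peaks (x axis) in members, red, and peaks of 1 to 2 kb, blue. Middle and right: percent of sequence covered by H3K4me2 and by the list labelled H3K9me3 in 5 zones from the edge inward, with 95% intervals; both lists cover less of the members in every zone, and H3K4me2 stays between 22.3 and 26.8% there.

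Among the members with the highest covered share, those on chromosome 3 (174575545 to 174582566) and chromosome 20 (56266228 to 56271664) lay wholly under 1 H3K4me2 peak each, and that on chromosome 8 (59145369 to 59150541) was 98.1% covered by 1. The 3 widest of the 65 members without H3K4me2 lay at chr20:45979452-45991132 (11.7 kb), chr6:26025236-26035339 (10.1 kb) and chr1:235092377-235102064 (9.69 kb). All 3 had H3K4me2 peaks within 20 kb on both sides. The 65 members were slightly narrower, with a median of 5.99 kb against 6.58 kb in the 499 with H3K4me2. The list labelled H3K9me3 lay on 40.0% of the 65 (29.0 to 52.1) and on 24.8% of the 499 (21.3 to 28.8). In peaks of 1 to 2 kb the order was the other way, with 29.4% of those without H3K4me2 (27.4 to 31.4) and 35.8% of those with it (34.3 to 37.3). H3K36me3 lay on 21.5% of the 65 members (13.3 to 33.0) and 33.1% of the 499 (29.1 to 37.3), whose intervals overlap.

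H3K36me3, the mark of transcribed gene bodies, was met more often by members than by peaks of 1 to 2 kb on each of 3 measures, but not more than by the narrowest peaks per length. It overlapped 179 members, 31.7% (28.0 to 35.7), against 6.10% (5.52 to 6.73) of peaks of 1 to 2 kb and 12.9% of all H3K27ac peaks. It covered 5.69% of member sequence against 2.77%, a difference of 2.92 points (1.89 to 3.94), and met 7.98% of the central windows against 4.85%, a difference of 3.12 points (1.08 to 5.71). With H3K27ac peaks merged within 1 kb the difference in central windows was 1.20 points, and its interval included 0 (-0.637 to 3.44). Coverage was highest in the outermost zone of the members, at 7.88% (6.40 to 9.35), and 4.42% (3.02 to 5.82) in the innermost. Within the members it overlapped 26.0% at 5 to 7.5 kb, 35.1% at 7.5 to 10 kb and 53.8% (42.9 to 64.3) over 10 kb. The relation to width was not monotonic over the whole list. Of peaks of up to 0.50 kb, 17.0% overlapped H3K36me3, which covered 14.8% of their sequence and met 18.6% of their central windows. In peaks of 0.50 to 1 kb those values were 9.91, 7.54 and 10.9%. In covered share and in central windows, which extend beyond peaks this narrow, both classes had higher values than the members, while the classes of 1 to 2 kb and 2 to 5 kb had the lowest covered shares, at 2.77 and 3.07%. The members with the largest covered share were at chr19:45297623-45303480 (72.4%), chr1:28831593-28836624 (69.0%) and chr2:38297410-38303411 (65.9%).

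The list labelled H3K9me3 covered a smaller share of the members than of any narrower class, but overlapped more of them than of the narrowest peaks. It overlapped 150 members, 26.6% (23.1 to 30.4), against 33.6% (32.4 to 34.8) of peaks of 1 to 2 kb and 19.3% of all H3K27ac peaks. It covered 3.10% of member sequence and 16.9% of the narrower class, a difference of -13.8 points (-14.7 to -12.9). Central windows met it in 5.50% of members against 32.1%, a difference of -26.6 points (-28.6 to -24.1). Such a window takes in most of a narrower peak and a small part of a member, so width can enter this difference. Where peaks of 1 to 2 kb had more of it towards the centre (19.2% against 11.7% at the edge), members had 2.09% (1.30 to 2.87) in the innermost zone and 3.44% (2.57 to 4.31) in the outermost. Over 10 kb it overlapped 17.5% of members and covered 1.01% of their sequence. The 3 widest members on this list were the overlapping pair on chromosome 1 (154151855 to 154171384 and 154155908 to 154172905), with 3 peaks each over 9.46 and 9.59% of their length, and the member on chromosome 14 (38052126 to 38069034), with 1 peak over 5.30%.

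No member overlapped H3K27me3, the Polycomb mark. A count of 0 in 564 allows a share of up to 0.532%, and 0 of the 5953 peaks of 1 to 2 kb overlapped it either. The list labelled H2A.Z lay on 1 member, on chromosome 2 (165368309 to 165374457), and on 3 peaks of 1 to 2 kb. At this size neither class could be told from the other for these 2 lists.

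Every member fell into 1 of 9 combinations of other lists. A wide region has more room to meet a list, or several, and these shares are not corrected for width. The combinations were not counted over all H3K27ac peaks, so the shares are a description. H3K4me2 alone lay on 232 members (41.1%), against 39.7% of peaks of 1 to 2 kb. H3K4me2 with H3K36me3 lay on 142 (25.2%, 21.8 to 28.9), against 2.81% (2.42 to 3.26). H3K4me2 with the list labelled H3K9me3 lay on 101 (17.9%), against 23.4%. None of the 5 lists lay on 28 members (4.96%, 3.46 to 7.08), against 21.0% (19.9 to 22.02). The rest were 23 with the list labelled H3K9me3 alone, 23 with H3K4me2, H3K36me3 and the list labelled H3K9me3 together, 11 with H3K36me3 alone, 3 with H3K36me3 and the list labelled H3K9me3, and 1 with H3K4me2 and the list labelled H2A.Z. Inside the members, 27.6% (21.4 to 33.9) of the sequence on the list labelled H3K9me3 and 24.9% (19.9 to 29.9) of that on H3K36me3 was also under H3K4me2, beside 24.3% of member sequence as a whole. In peaks of 1 to 2 kb those values were 45.6% and 22.1%, beside 38.0%.

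Outside their edges the members lay in regions rich in H3K27ac and H3K4me2 and poor in H3K27me3. Sequence in other members, overlapping rows included, was left in, so the values outside the edges partly count members themselves. With overlapping rows merged, the difference from peaks of 1 to 2 kb for H3K4me2 within 20 kb was 12.3 points (9.86 to 14.1). Coverage by distance was not computed with rows merged or other members left out. A non-overlapping H3K4me2 peak lay within 20 kb of 94.5% of members, against 82.3% of peaks of 1 to 2 kb and 86.3% of all H3K27ac peaks, and on both sides of 66.1% against 43.0%. Close to the edge the order was the other way, and in the first 0.5 kb outward H3K4me2 covered 12.3% beside members and 21.7% beside peaks of 1 to 2 kb. From 2 to 5 kb outward it covered 9.88% (8.87 to 10.9) and 6.44% (6.16 to 6.72), and at 20 to 50 kb it still covered 7.04% and 4.61%. H3K27ac itself covered 15.7% beside members at 1 to 2 kb outward against 7.85%, and 4.06% against 3.13% at 100 to 200 kb.

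H3K27me3 came within 20 kb of 2 members, 0.355% (0.0973 to 1.28), against 8.57% (7.88 to 9.31) of peaks of 1 to 2 kb and 6.78% of all H3K27ac peaks. The 2 members lay on chromosome 19 (4797414 to 4803832), 18.4 kb from H3K27me3, and on chromosome 9 (120160636 to 120165827), 13.5 kb from it. Within 10 kb there was none beside a member, against 4.59% of the narrower class. The median distance to the nearest H3K27me3 peak was 256 kb (237 to 286) from members and 166 kb (160 to 174) from peaks of 1 to 2 kb. Coverage by H3K27me3 was still lower beside members at 100 to 200 kb, at 0.909% (0.724 to 1.09) against 1.43% (1.35 to 1.51). Against peaks of 2 to 5 kb the difference within 20 kb was -4.08 points (-4.84 to -2.97).

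The list labelled H2A.Z came within 20 kb of 17 members, 3.01% (1.89 to 4.77), against 7.44% (6.80 to 8.14) of peaks of 1 to 2 kb and 6.20% of all H3K27ac peaks. Against peaks of 2 to 5 kb the difference was -1.82 points, with an interval that includes 0 (-3.17 to 0.049). H3K36me3 came within 20 kb of 68.6% of members, against 63.5% of peaks of 1 to 2 kb and 60.7% of all, a difference of 5.15 points (1.03 to 9.05). Against peaks of 2 to 5 kb, however, it differed by 0.0365 points (-4.17 to 4.02). The list labelled H3K9me3 came within 20 kb of 35.1% of members, 33.6% of peaks of 1 to 2 kb and 36.5% of all, and the difference from the narrower class was 1.51 points (-2.50 to 5.71), which is within counting error.

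**Figure D3:**
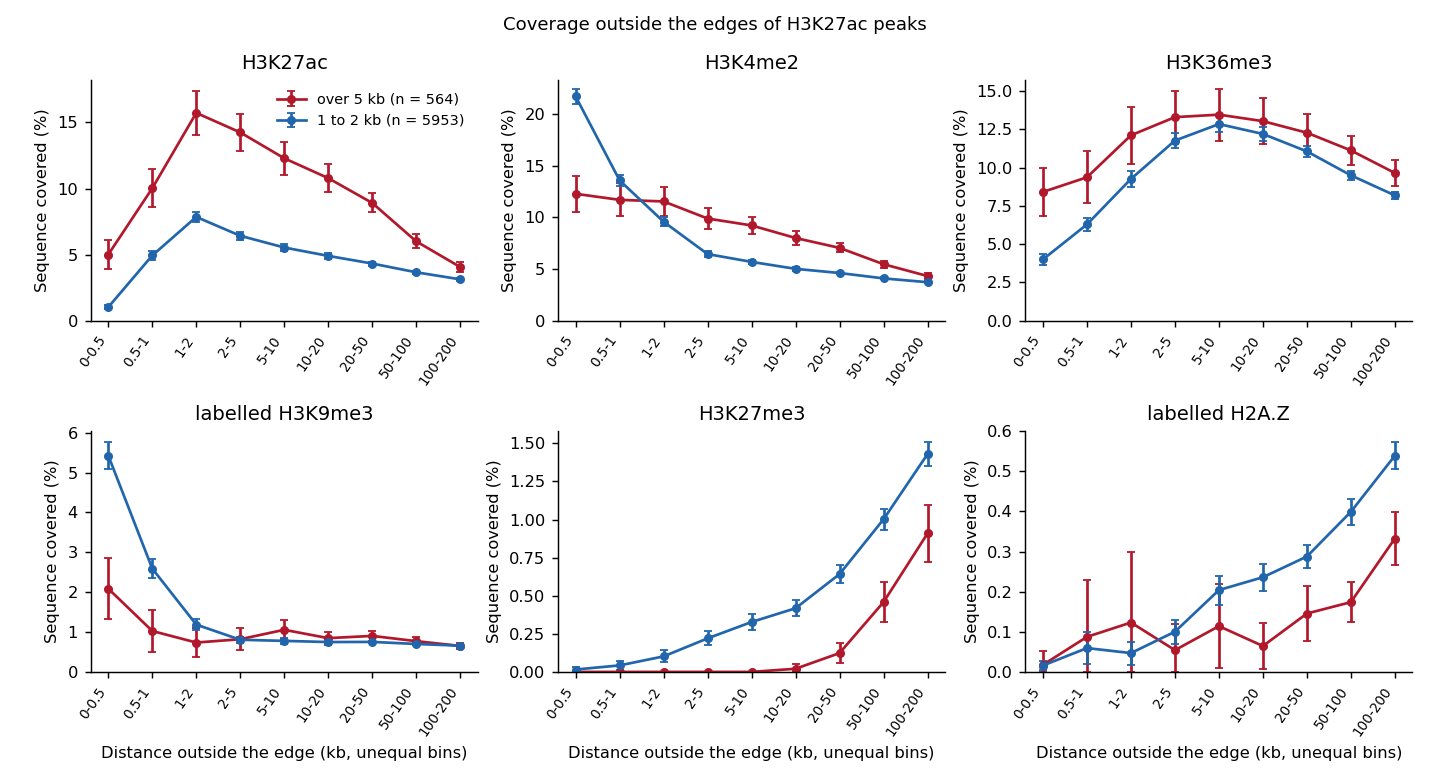
Percent of sequence covered by each of the 6 lists (y axes, separate scales) in unequal distance bins outward from the edges in kb (x axis), for members, red, and peaks of 1 to 2 kb, blue, with 95% intervals. Sequence in other members was left in. H3K27me3 is at 0 beside members up to 10 kb and reaches 0.909% at 100 to 200 kb, against 1.43% beside the narrower peaks.

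Sequence under H3K36me3 within 20 kb lay on neither side of 172 members, on 1 side of 215 and on both sides of 177. In the 215, and in the 2270 peaks of 1 to 2 kb with H3K36me3 on 1 side, the peak was turned so that H3K36me3 lay to the right, which gives a direction relative to a neighbouring H3K36me3 region and not a known direction of transcription. H3K36me3 chose this direction, so its own profile is a description, and it covered 2.88% of the side of the member away from H3K36me3 and 9.17% of the side towards it. The list labelled H3K9me3 covered 3.86% of the away side of members (2.58 to 5.13) and 1.98% of the side towards H3K36me3 (1.04 to 2.92), against 22.4% of the away side (21.0 to 23.9) and 13.6% of the other side in peaks of 1 to 2 kb. In the members these intervals overlap. Its highest value in members was 7.00% (4.22 to 9.78) in the 2nd of 10 equal parts counted from the away edge, and it was 1.03% (-0.0824 to 2.15) in the last part, next to the H3K36me3 side. H3K4me2 covered 25.03% of the away side of members and 26.8% of the other side, against 34.0% and 41.1% in peaks of 1 to 2 kb.

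**Figure D4:**
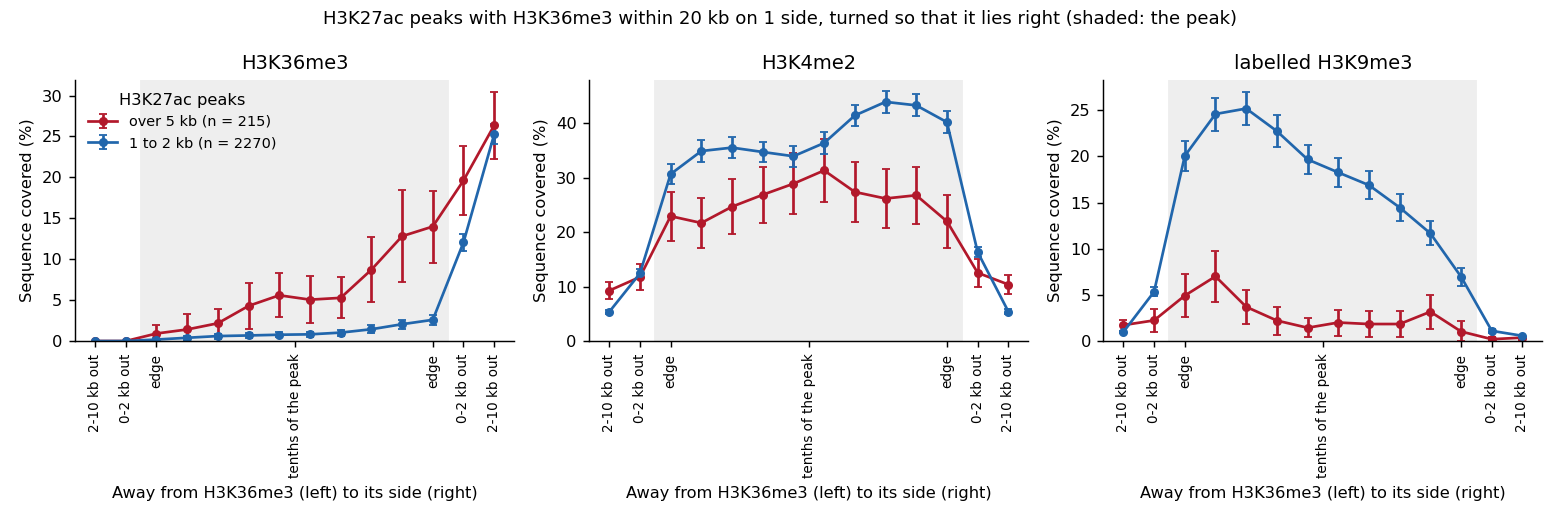
Percent of sequence covered (y axes) by H3K36me3, H3K4me2 and the list labelled H3K9me3 along 215 members, red, and 2270 peaks of 1 to 2 kb, blue, each turned so that the H3K36me3 within 20 kb lies right; the x axis runs through 2 outer bins, 10 equal parts of the peak (shaded) and 2 outer bins, with 95% intervals. The list labelled H3K9me3 reaches 7.00% in the 2nd part of the members, whose 2 sides have overlapping intervals, and covers 22.4% of the left side of the narrower peaks against 13.6% of the right.

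The members were found on all 23 chromosomes, with 57 on chromosome 1, 44 on chromosome 19 and 42 on chromosome 11, and the fewest, 6, on chromosome 13. Per Mb of analysed sequence they were densest on chromosomes 19 and 22, at 0.788 (0.572 to 1.06) and 0.727 (0.471 to 1.07), and sparsest on chromosome 13, at 0.0634 (0.0233 to 0.138), with 0.203 overall. Chromosome 19 was also densest in peaks of 1 to 2 kb, at 7.30 per Mb against 2.15 overall. Per 100 H3K27ac peaks the members were more frequent than the 1.79 of the whole list on chromosome 22, at 3.43 (2.34 to 5.02), and chromosome 8, at 3.003 (2.15 to 4.19), and less frequent on chromosome 16, at 0.901 (0.527 to 1.54). The intervals of the other 20 chromosomes included the whole-list share. Of the 33 members on chromosome 8, 7 lay in 1 group joined within 50 kb (116790677 to 116913177). The interval counts these 7 as independent. Peaks of 1 to 2 kb made up 17.0, 21.7 and 18.7 of 100 H3K27ac peaks on chromosomes 22, 8 and 16, against 18.9 overall. Counting members over 10 kb alone, the difference from the share on all chromosomes was 0.295 on chromosome 22, 0.110 on chromosome 8 and -0.254 on chromosome 16, and all 3 intervals included 0. With H3K27ac peaks merged within 1 kb the differences were 0.756 (-0.190 to 2.05) on chromosome 8 and -0.481 (-1.14 to 0.467) on chromosome 16, and with overlapping rows alone merged that on chromosome 16 was -0.669 (-1.10 to 0.0225), so that these intervals included 0 as well.

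**Figure D5:**
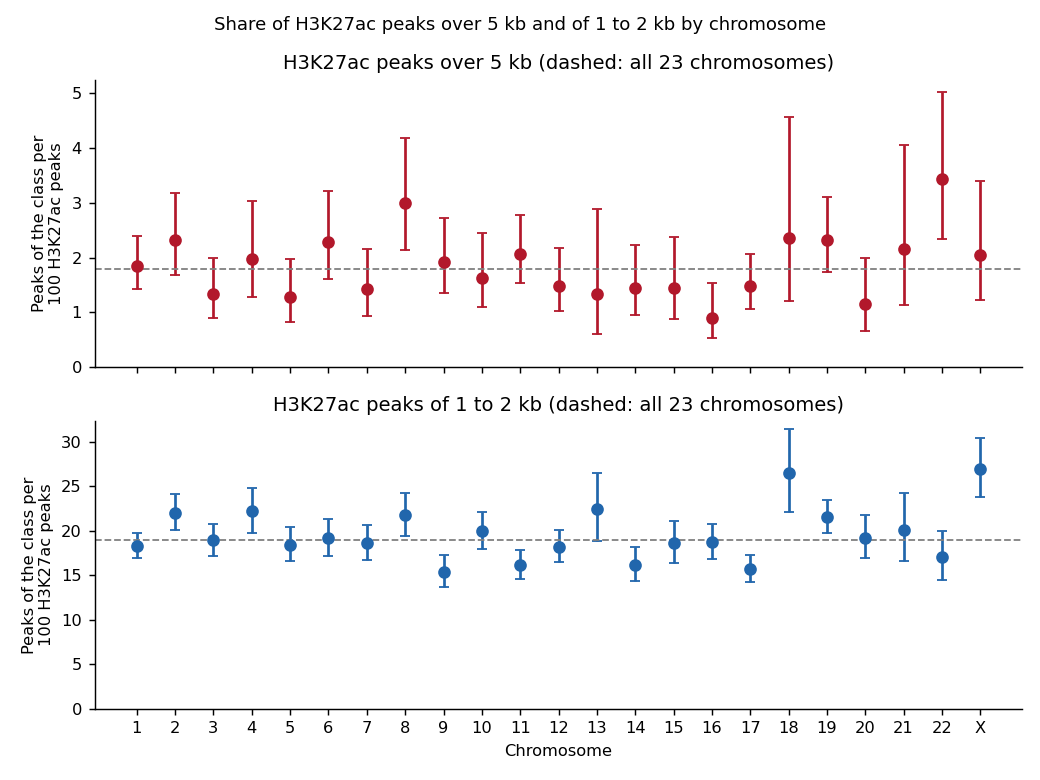
Members (top, red) and peaks of 1 to 2 kb (bottom, blue) per 100 H3K27ac peaks (y axes) on each of 23 chromosomes (x axis), with 95% intervals; dashed lines are the values over all chromosomes. Chromosomes 22 and 8 lie above the line in the top panel, at 3.43 and 3.003, and chromosome 16 below it, at 0.901.

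Members lay closer to other acetylated regions and to members than peaks of 1 to 2 kb did. Most members, however, had no other member within 50 kb. The nearest other member was a median of 368 kb away (235 to 524). From peaks of 1 to 2 kb the nearest member was a median of 1270 kb away (1199 to 1351). The nearest other H3K27ac peak was a median of 1.51 kb from a member (1.33 to 1.74), against 7.43 kb (6.80 to 8.22) for peaks of 1 to 2 kb. Another H3K27ac peak lay within 10 kb of 499 members (88.5%, 85.6 to 90.9), against 3224 peaks of 1 to 2 kb (54.2%, 52.9 to 55.4). The median number of such neighbours was 2 beside members and 1 beside the narrower peaks. Overlapping rows count as neighbours in these values, and they were commoner among members (13.5%) than among peaks of 1 to 2 kb (2.13%). These distances and neighbour counts were not computed with rows merged. Another member lay within 50 kb of 178 members (31.6%, 27.9 to 35.5), and a member within 50 kb of 478 peaks of 1 to 2 kb (8.03%, 7.37 to 8.75). With overlapping H3K27ac rows merged the share of members was 26.7%.

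Joined within 50 kb, the 564 members formed 386 single regions, 49 groups of 2 and 23 groups of 3 or more. Counting distinct regions, 62 groups held 149 of them. The largest groups had 7 members, 6 of them distinct. One lay on chromosome 6 (26120371 to 26254861) and spanned 134.5 kb with 13 H3K27ac, 12 H3K4me2, 14 H3K36me3 and 3 labelled H3K9me3 peaks. The other lay on chromosome 8 (116790677 to 116913177) and spanned 122.5 kb with 10 H3K27ac, 17 H3K4me2, 2 H3K36me3 and 1 labelled H3K9me3 peaks. Of the 3 groups of 4, the longest, on chromosome 2 (190345456 to 190447702), spanned 102.2 kb with 16 H3K27ac and 25 H3K4me2 peaks and no H3K36me3. None of the 3 named groups held a peak of H3K27me3 or of the list labelled H2A.Z.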

How the data were processed

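ChIP-seq was carried out on 6 histone marks in T-47D cells, with 1 library per mark. The authors' deposited files are peak lists with chromosome, start, end and name and no other value. The submitters' processing notes name Bowtie2 2.1.0, HOMER 4.2 and the builds hg19 and GRCh37. What each tool did, how peaks were called, whether the input entered and how deeply each library was read is not given in the sources used here. Many peaks have the commonest width of 0.50 kb (41.9% of the H3K27ac list). Narrower peaks occur, such as an H3K4me2 peak of 70 bp in a member on chromosome 1. The width of a peak can depend on how adjacent signal was joined, which no source used here gives.

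From the lists, overlaps of at least 1 bp, covered bp, windows of 1 kb around midpoints and non-overlapping peaks within 20 kb were computed with Python 3.11.15, numpy 2.4.6 and scipy 1.17.1. Shares have Wilson intervals, differences of shares Newcombe intervals, peaks per Mb exact Poisson intervals, medians order-statistic intervals, and covered sequence a linearised ratio interval over peaks, all at 95%. Spans of 1 Mb or more with no peak of any list were left out of the Mb. The floor of a count of 0 is 3 counts of the total. No p-value was computed, since 1 library per mark gives no replicate error. Neighbouring H3K27ac peaks were counted within 10 kb, a distance set after seeing the data in place of a slightly longer planned one. The methods were tested on simulated data. The members and lists were chosen with earlier results of these data known. The named regions are the 20 widest members, the 3 highest by each H3K4me2 and H3K36me3 measure, the 3 widest without H3K4me2 and on the list labelled H3K9me3, those on or nearest H3K27me3 and the list labelled H2A.Z, the 3 largest groups and the 3 peaks on each side of 5000 bp. Alternatives were other width limits, merged peaks, autosomes, wider peaks of the other lists, other overlaps, windows and distances, and peaks of 2 to 5 kb as the comparison. Sequence content and gene starts were not analysed here, since no hg19 genome was used.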

Additional observations from a re-analysis of the deposited data

Results flagged for a closer look

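Peaks on contigs outside chromosomes 1 to 22 and X entered no comparison, and the H3K27ac list has 157 of them. Of these, 5 were wider than 5 kb, from 5.12 to 12.6 kb on 3 contigs, which is 3.18% (1.37 to 7.24, Wilson interval) beside 1.79% of the H3K27ac peaks on the chromosomes analysed. A peak list has no control samples, so the share on these contigs was set only against that on the chromosomes analysed. Its interval includes that share, so they could not be told apart.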

How the results depend on the processing

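Across 127 alternative values none reversed a difference whose interval left out 0, 125 kept their sign and 76 were counted as not moved. These stayed inside the interval of the value as reported, except the number of members with H3K27ac peaks merged within 1 kb. That number was 737, outside 518 to 613, and was judged by fold change instead. Of those 76, 5 had an interval that came to include 0: merging within 1 kb gave 1.20 for H3K36me3 in central windows, and 0.756 and -0.481 members per 100 peaks on chromosomes 8 and 16, merging overlapping rows gave -0.669 on chromosome 16, and members over 10 kb gave -4.94 for labelled H2A.Z within 20 kb. The 51 that moved follow, as members minus peaks of 1 to 2 kb in percentage points unless named otherwise. No paired analysis was possible because each mark has 1 library. The lists hold no depth, and the depth limits what the absence of a peak shows.

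With members over 10 kb, overlap was 31.2 for H3K4me2, 47.7 for H3K36me3 and -16.1 for the list labelled H3K9me3; covered sequence -16.0, 4.43 and -15.9; peaks within 20 kb 15.2, 12.8 and -4.85. The central windows were 7.65 for H3K36me3 and -30.8 for labelled H3K9me3. H3K4me2 peaks per member averaged 3.05 and per kb differed by -0.291. Members per 100 H3K27ac peaks differed from all chromosomes by 0.295 on chromosome 22, 0.110 on 8 and -0.254 on 16, the last with no member. Against peaks of 2 to 5 kb, overlap was 11.1 for H3K4me2 and 18.8 for H3K36me3, covered sequence -8.11 for H3K4me2 and -7.35 for labelled H3K9me3, and central windows -7.48 and -21.6. Within 20 kb it was 9.52 for H3K4me2, 0.0365 for H3K36me3, -4.08 for H3K27me3 and -1.82 for labelled H2A.Z, and H3K4me2 per kb -0.122.

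With peaks of the other lists wider than the commonest width, H3K36me3 overlap was 18.9, labelled H3K9me3 -10.9 in covered sequence and -17.1 in central windows, and within 20 kb H3K4me2 17.0, H3K27me3 -4.09 and labelled H2A.Z -1.75. H3K4me2 peaks then averaged 1.13 per member and -0.243 per kb. With H3K27ac peaks merged within 1 kb (737 members) covered sequence was -11.5 for H3K4me2 and -12.8 for labelled H3K9me3, whose central windows were -23.9, and H3K4me2 per kb -0.244. A required overlap of 50% of the shorter peak gave 29.8 for H3K4me2 and -0.195 per kb. Central windows of 500 bp gave -22.96 for labelled H3K9me3. Within 10 kb the differences were 17.0 for H3K4me2, -4.59 for H3K27me3 and -1.72 for labelled H2A.Z, and within 50 kb 5.31, -15.9 and -8.68.

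The share of members in groups was 17.7% at a planned shorter joining distance and 37.6% within 100 kb. Merging overlapping H3K27ac rows (558 members), chosen after seeing the data, moved 1 of 21 values, the share in groups, to 26.7%. Autosomes alone moved 0 of 16. Beyond the construction of each alternative the cause was not tested.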

Other observations

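Of the 20 widest members, 6 stand in pairs of overlapping members. The shift between the starts of such a pair was 4053 bp on chromosome 1 (154151855 to 154171384 and 154155908 to 154172905) and 1521 bp between their ends. On chromosome 20 (49337357 to 49343889 and 49338984 to 49362809) the starts were 1627 bp and the ends 18920 bp apart. Members with H3K36me3 inside or within 20 kb (405) met the list labelled H3K9me3 in 22.96% (19.1 to 27.3), against 35.8% (28.8 to 43.6) of the 159 without it. In peaks of 1 to 2 kb those shares were 30.9% (29.4 to 32.4) and 38.4% (36.4 to 40.5). H3K4me2 lay on 89.6% (86.3 to 92.2) and 85.5% (79.2 to 90.2) of the same members, whose intervals overlap. The difference between the members' gap and that of the narrower class was not tested.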
